A study of Mus musculus with 12 samples.

Results

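The genes described here are 48 interferon-stimulated genes, a set named by symbol and read in RNA sequencing of mouse embryonic fibroblasts with and without Htt, which encodes the large scaffold protein huntingtin. All 48 symbols matched 1 gene of the 55487 listed per library, and all 48 were among the genes tested in every comparison, so no member was lost to the filter on low counts. The rule that names them is a list of symbols and uses no measured value, though the list was chosen with earlier results of these data known. Primary cultures came from E13.5 embryos with both Htt alleles floxed (HTTfl/fl). HTT-deleted cells had received a lentivirus for Cre recombinase and GFP (LV-Cre-GFP), and control cells, with the same floxed alleles, a lentivirus for a fusion of histone H2B with eGFP (H2B-eGFP). Cells of both conditions had thus been exposed to a lentivirus 7 days before harvest, and cells without one are not part of the groups. From each suspension the authors took total RNA and, from the rest, ribosome-associated RNA, which is the RNA recovered with a washed ribosome pellet. The 12 libraries make 4 groups of 3: total HTT-deleted, total control, ribosome-associated HTT-deleted and ribosome-associated control. Replicates count as independent in the labels when they are different primary cultures or separate passages, so a p-value measures the spread between cultures or passages. Gene counts per library ran from 16789356 to 30571501, and the rarest member reading was 14 counts.

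Type I and type III interferons are secreted when a cell detects viral nucleic acid, and interferon gamma is secreted by lymphocytes. Type I interferons bind the receptor Ifnar1 and Ifnar2, and the kinases Jak1 and Tyk2 then activate Stat2, which acts with Irf9 on a DNA element called the interferon-stimulated response element. Interferon gamma acts through Ifngr1 and Ifngr2 on another element, the gamma-activated site. The genes so induced encode sensors, blocks to viral entry and replication, antigen presentation and the brakes of the response, and many are kept at a low level in fibroblasts before any infection.

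Some libraries stood apart, and their values stand beside the results they touch. Short members were high and long members low in the total library of HTT-deleted replicate 1. The deviation of the 48 members from the mean of the total libraries had a Pearson correlation of -0.605 with log2 exon length there. The total library of control replicate 1 went the other way, at 0.577, and the remaining total libraries lay between 0.0384 and 0.422. The ribosome-associated library of control replicate 1 had a correlation of -0.574, with -0.102 to 0.346 in the 5 other ribosome-associated libraries. These correlations are across genes, which are not independent replicates, and each library is part of the mean it is set against.

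Htt was at 15.5, 10.6 and 10.7 CPM in total RNA of HTT-deleted cells, against 58.9, 45.7 and 64.5 CPM in control cells, and at 12.8, 5.04 and 3.98 CPM in ribosome-associated RNA of HTT-deleted cells, against 22.6, 20.1 and 31.95 CPM in control cells. CPM here is the count of a gene relative to the total of its library, scaled by TMM over all 12 libraries, and 3 values in a row are replicates 1, 2 and 3. All 10 defining fibroblast markers were detected, and 2 of them averaged more in HTT-deleted than in control cells in total RNA and 1 on ribosomes. Their summed level was 23820, 40730 and 31640 CPM in total RNA of HTT-deleted cells, against 35300, 41490 and 32020 CPM in control cells, and 26330, 35510 and 27790 CPM in ribosome-associated RNA of HTT-deleted cells, against 30030, 40200 and 26670 CPM in control cells. The 18 macrophage markers were detected as well, and each averaged more in HTT-deleted than in control cells in both fractions. Their summed level was 7509, 1820 and 2805 CPM in total RNA of HTT-deleted cells, against 3243, 800.1 and 1846 CPM in control cells, and 8518, 2817 and 3680 CPM in ribosome-associated RNA of HTT-deleted cells, against 4941, 1213 and 2655 CPM in control cells. The order replicate 1, 3, 2 held in all 4 groups. Of 8 lymphocyte and NK cell markers, 4 were at 0 in all libraries and none reached 1 CPM. Of 6 plasmacytoid dendritic cell markers, with the member Bst2 among them, 4 were detected and 3 were over 1 CPM, while Siglech was at 0. In bulk RNA, more cells of a type and more RNA per cell cannot be told apart.

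The interferon genes themselves were at or near 0 counts. Of 10 interferon ligand genes, 8 (Ifna1, Ifna2, Ifna4, Ifna5, Ifng, Ifnl2, Ifnl3 and Ifnk) had 0 counts in all 12 libraries, and Ifnb1 and Ifne had 1 count in 1 library each; a count of 0 allows up to 3 counts by counting error alone. The machinery to respond was present. Ifnar1, a chain of the type I receptor, was at 72.01, 94.8 and 116 CPM in total RNA of HTT-deleted cells, against 108, 96.3 and 102 CPM in control cells. Jak1 was at 194, 284 and 401 CPM in total RNA of HTT-deleted cells, against 367, 354 and 428 CPM in control cells. Ifnlr1, the chain that makes a cell responsive to type III interferon, did not exceed 0.922 CPM in any library.

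All 48 interferon-stimulated genes were nonetheless expressed in every library. Per kb of exon, over 12 libraries, the most abundant was B2m, the light chain of MHC class I, at 1620 CPM per kb. Next came Ifitm3, which blocks fusion of viruses in endosomes, at 828 CPM per kb, and Bst2 (tetherin), which holds budding virions on the cell surface, at 379 CPM per kb. Isg15, a ubiquitin-like modifier, stood at 151 CPM per kb, Ifi27 at 133, Ifitm2 at 87.7, Ifit3 at 44.0 and Ifit1 at 36.7 CPM per kb. The lowest were Oas3 at 0.537, Oasl1 at 0.615, Mx1 at 1.03 and Rsad2 at 1.23 CPM per kb. Families differed in level. The membrane proteins Ifitm2, Ifitm3 and Bst2 ran from 87.7 to 828 CPM per kb. The OAS family, with the OAS-like genes, ran from 0.537 to 11.9 and the Mx, Rsad2 and Isg20 group from 1.03 to 3.94 CPM per kb.

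**Figure D1:**
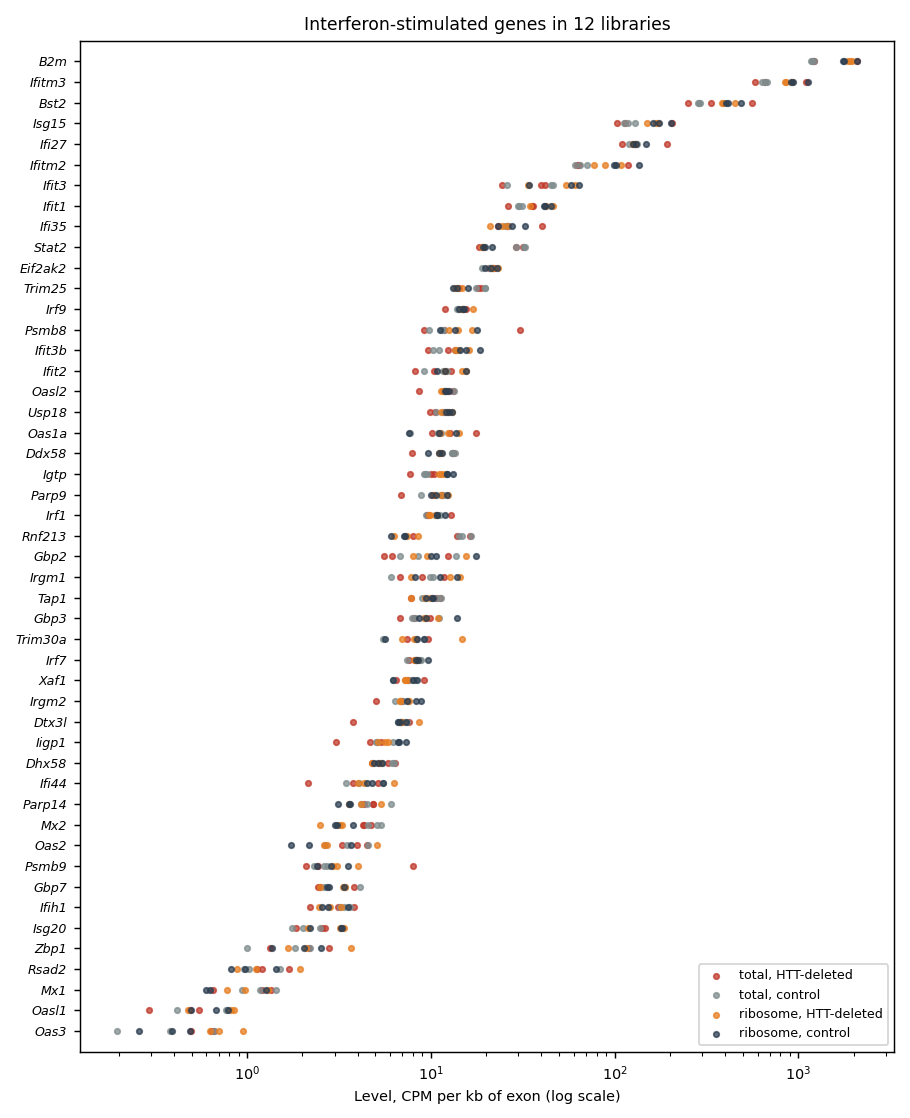
Level of each interferon-stimulated gene in CPM per kb of exon (log axis), with 1 point per library and colours for the 4 groups; genes run from the most abundant at the top to the least abundant at the bottom. B2m, at a mean of 1620 CPM per kb, lies far above Oas3, at 0.537 CPM per kb.

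Promoters were read for the letters of the response elements, because they set these genes apart in sequence whatever their level. RefSeq promoters of 300 bases (250 before to 50 after the start, GRCm38.p6) were matched by symbol for 38 of the 48 genes, with 45 promoters in all. The interferon-stimulated response element was searched as TTTC, any 2 bases, TTTC, which on the other strand reads GAAA, any 2 bases, GAAA, and the gamma-activated site as TTC, any 3 bases, GAA, which reads the same on both strands. The matches of the elements may overlap each other. The first was found in 23 of the 45 member promoters (51.1%), against 3.44% of all 32851 promoters in the table. The second was found in 12 of 45 (26.7%), against 8.30% of all. The 22 genes with the response element included Stat2, Isg15, Ifit1, Ifit3, Ifit3b, Oas1a, Oas3, Gbp2, Gbp3, Gbp7, B2m and Bst2. The 16 matched genes without it included Irf1, Irf7, Irf9, Psmb8, Psmb9, Tap1 and Rnf213. A match is a run of letters and not a bound site, and no match says only that these letters are not in this window.

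The 200 bases before the RefSeq start are given for 8 genes that the results turn on, 5′ to 3′ on the gene's strand, with the response element in capitals. Ifit3 and Ifit3b are near-copies, Isg15 has 3 overlapping matches, Oas3 is the member with the largest difference between HTT-deleted and control cells on ribosomes, and Gbp2, Gbp3 and Gbp7 shared a pattern over replicates.
Ifit1, chr19:34640689-34640888, plus strand: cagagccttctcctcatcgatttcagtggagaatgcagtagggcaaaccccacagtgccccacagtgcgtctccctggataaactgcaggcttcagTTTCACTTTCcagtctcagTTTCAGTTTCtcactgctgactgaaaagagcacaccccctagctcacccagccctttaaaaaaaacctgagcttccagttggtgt
Ifit3, chr19:34583329-34583528, plus strand: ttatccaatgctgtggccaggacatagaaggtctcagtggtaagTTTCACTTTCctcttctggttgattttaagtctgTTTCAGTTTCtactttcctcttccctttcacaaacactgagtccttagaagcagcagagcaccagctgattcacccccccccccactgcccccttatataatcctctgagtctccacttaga
Ifit3b, chr19:34607757-34607956, plus strand: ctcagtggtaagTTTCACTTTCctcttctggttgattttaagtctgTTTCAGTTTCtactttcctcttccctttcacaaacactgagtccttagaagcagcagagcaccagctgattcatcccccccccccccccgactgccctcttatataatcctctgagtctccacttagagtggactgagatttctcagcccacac
Isg15, chr4:156200819-156201018, minus strand: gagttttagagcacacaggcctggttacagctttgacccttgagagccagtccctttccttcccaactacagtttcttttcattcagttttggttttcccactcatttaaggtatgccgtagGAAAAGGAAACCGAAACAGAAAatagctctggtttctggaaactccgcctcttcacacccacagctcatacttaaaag
Oas3, chr5:120777660-120777859, minus strand: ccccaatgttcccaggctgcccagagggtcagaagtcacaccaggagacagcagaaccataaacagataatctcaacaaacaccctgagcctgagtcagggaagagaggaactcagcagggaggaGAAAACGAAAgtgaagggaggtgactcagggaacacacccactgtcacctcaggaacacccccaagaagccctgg
Gbp2, chr3:142620463-142620662, plus strand: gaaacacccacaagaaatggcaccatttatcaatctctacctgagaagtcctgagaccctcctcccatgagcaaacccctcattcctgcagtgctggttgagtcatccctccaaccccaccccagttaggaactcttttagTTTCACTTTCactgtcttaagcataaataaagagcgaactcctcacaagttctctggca
Gbp3, chr3:142559844-142560043, plus strand: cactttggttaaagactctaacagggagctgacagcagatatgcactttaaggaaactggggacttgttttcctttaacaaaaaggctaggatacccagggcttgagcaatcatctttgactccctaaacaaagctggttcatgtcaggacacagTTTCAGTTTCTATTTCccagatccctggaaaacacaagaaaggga
Gbp7, chr3:142530136-142530335, plus strand: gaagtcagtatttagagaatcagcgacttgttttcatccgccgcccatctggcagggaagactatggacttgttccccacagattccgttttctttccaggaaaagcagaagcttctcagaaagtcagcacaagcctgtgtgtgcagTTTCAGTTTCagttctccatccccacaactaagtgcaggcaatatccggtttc
In Ifit1 the elements began 104 and 85 bases before the start. The windows of Ifit3 and Ifit3b shared a run of 119 bases that holds both of their elements, which began 156 and 122 bases before the start in Ifit3 and 188 and 154 bases before it in Ifit3b. Those of Isg15 began 78, 72 and 66 bases before the start. Oas3 had 1 match, 75 bases before the start. Gbp2 and Gbp7 had 1 match each, 59 and 53 bases before the start, and Gbp3 had overlapping ones at 45 and 39 bases. The 200 bases of another RefSeq promoter of Gbp3, at 142560156 to 142560355, held no match. GENCODE places the start of the Gbp2 gene at 142620602, before its match, so that distance is less certain. For Ifit3b the bases after the start were not found in a GENCODE transcript of the gene, so its distances are less certain.

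In total RNA the interferon-stimulated genes showed no shared direction between HTT-deleted and control cells. Of the 48, 24 had a log2 fold change (HTT-deleted over control) above 0 and 24 below, with a median of 0.0029 against 0.013 over all 14759 genes tested, and 39 of 48 lay within 1.25-fold of control, as did 76.1% of all genes. The quasi-likelihood test of edgeR called no member at an adjusted p under 0.05 (Benjamini-Hochberg) and 0.0% of all genes, and the lowest adjusted p of a member was 0.978. At an unadjusted p under 0.05 there were 0 members and 44 of all genes. A block on replicate number again gave 0 members (lowest adjusted p = 0.902) and 0.0% of all genes in edgeR. DESeq2 called 0 members and 3 genes (0.0113%), and limma voom called none. In replicates 2 and 3 alone with the block, 0 members and 0.629% of all genes were called. For all 48 members the HTT-deleted and control values overlapped, while groups without overlap were found in 1.61% of all genes on the higher side and 2.6% on the lower side. The median standard error of a member was 0.23 on the log2 scale, so these data do not show that a single gene did not change.

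On ribosomes the spread was narrower, and Oas3 and Oas2 were the members called higher once the replicate number was a block. The median log2 fold change of the 48 members was -0.015, against -0.0010 over all 14588 genes, with 22 members above 0 and 26 below, and 43 of 48 lay within 1.25-fold, as did 86.5% of all genes. Without the block the same test called 0 members and 0.0% of all genes, with 2 members and 110 genes at an unadjusted p under 0.05. Blocked on replicate number, it called 247 genes (1.69%), 213 of them higher in HTT-deleted cells (1.46%) and 34 lower (0.233%), and among the members 2 higher, Oas3 and Oas2, and 0 lower. In replicates 2 and 3 alone, a fit added after seeing the data, 0 members were called and 14 genes (0.0944%), and DESeq2 without the block called 0 members and 1 gene (0.004%). Groups that did not overlap were seen for 1 member on the higher side, Oas3, where 2.63% of all genes met that rule, and for 4 on the lower side, Irf1, Oasl2, Iigp1 and Igtp, where 2.82% did.

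**Figure D2:**
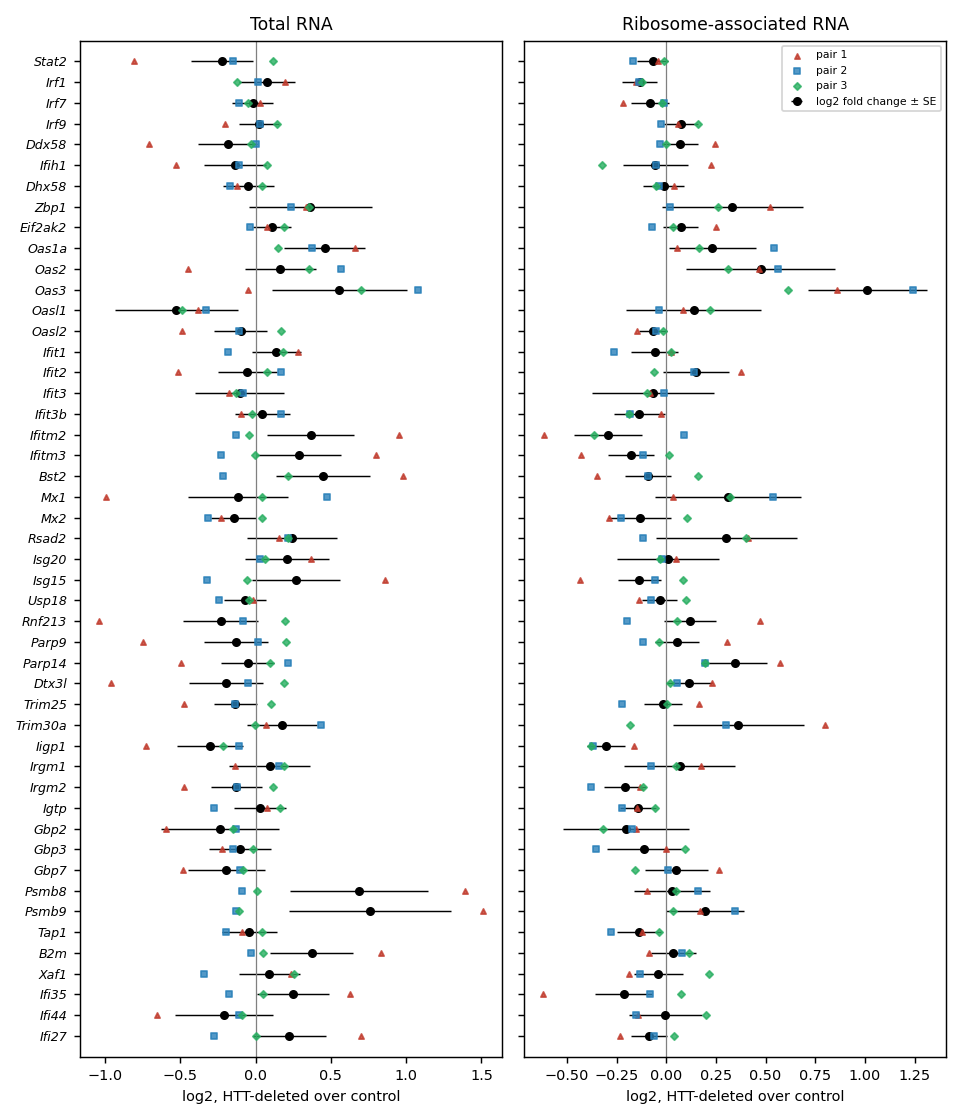
Log2 fold change of HTT-deleted over control for the 48 interferon-stimulated genes, grouped by role, in total RNA (left) and ribosome-associated RNA (right). Black points with bars are the fitted value ± SE, and coloured marks are the differences of same-numbered libraries, from log2 of CPM plus 0.5; in total RNA pair 1 (triangles) lies far from pairs 2 and 3 for many genes, as for Psmb9 at 1.51 against -0.13 and -0.11, and Oas3 on ribosomes lies above 0 in all 3 pairs.

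The OAS enzymes make oligoadenylates, which switch on the RNA-degrading enzyme RNase L. Oas3 was at 4.47, 3.49 and 4.68 CPM in total RNA of HTT-deleted cells, against 4.65, 1.38 and 2.69 CPM in control cells, and at 6.70, 5.00 and 4.46 CPM in ribosome-associated RNA of HTT-deleted cells, against 3.47, 1.83 and 2.74 CPM in control cells. On ribosomes every HTT-deleted library lay above every control library, whereas in total RNA HTT-deleted replicates 1 and 3 stood level with control replicate 1. Its log2 fold change was 1.01 (SE 0.30) on ribosomes without the block and 1.01 (SE 0.20) with it, which with the block is past the threshold (edgeR quasi-likelihood, adjusted p = 0.0107), and 0.56 (SE 0.45) in total RNA. Oas2 was at 14.7, 17.7 and 19.98 CPM in total RNA of HTT-deleted cells, against 20.2, 11.8 and 15.5 CPM in control cells, and at 22.8, 11.7 and 12.2 CPM in ribosome-associated RNA of HTT-deleted cells, against 16.3, 7.75 and 9.70 CPM in control cells. Within each replicate number the ribosome-associated Oas2 level was higher in HTT-deleted cells, by 0.47, 0.56 and 0.31 on the log2 scale, but replicate 1 was high in both conditions and the groups overlapped. Oas2 was at 0.47 (SE 0.12) with the block, with an edgeR adjusted p of 0.0494. Without the block it was 0.48 (SE 0.37), and without ribosome-associated HTT-deleted replicate 1 the value was 0.091. Its total RNA differed by -0.45, 0.56 and 0.36 in the 3 pairs, with pair 1 the other way. Oas2 and Oas3 lie close together on chromosome 5, at 120730333 to 120749853 and 120753098 to 120777661 on the minus strand of GRCm38.

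The summed level of the macrophage markers on ribosomes was higher in HTT-deleted cells by 0.786, 1.22 and 0.471 (log2) in pairs 1, 2 and 3. Oas3 was higher there by 0.86, 1.24 and 0.61. In total RNA the summed markers were higher by 1.21, 1.19 and 0.604, where Oas3 differed by -0.05, 1.08 and 0.70. Oas2 differed by -0.45, 0.56 and 0.36 in total RNA. Both libraries of pair 1 in that fraction stood apart by exon length, with the correlations of -0.605 (HTT-deleted) and 0.577 (control) given above. All 18 markers were detected, with none at 0, and their part in the Oas2 and Oas3 values was not tested. The other OAS genes were not called. Oas1a was at 33.02, 19.1 and 23.96 CPM in total RNA of HTT-deleted cells, against 20.7, 14.6 and 21.5 CPM in control cells, and at 26.9, 21.03 and 23.4 CPM in ribosome-associated RNA of HTT-deleted cells, against 25.9, 14.3 and 20.8 CPM in control cells. Oas1a was higher in HTT-deleted cells in all 3 pairs of total RNA, as were 9.99% of all genes, and in all 3 pairs on ribosomes, as were 16.1%, with a log2 fold change of 0.46 (SE 0.27) in total RNA and 0.23 (SE 0.22) on ribosomes, and 57.6% of its 50-base runs also occur in Oas1g, so its counts are uncertain. Oasl1 was at 1.44, 0.763 and 1.27 CPM in total RNA of HTT-deleted cells, against 2.03, 1.09 and 1.99 CPM in control cells, and at 2.20, 1.24 and 2.14 CPM in ribosome-associated RNA of HTT-deleted cells, against 2.05, 1.28 and 1.76 CPM in control cells. These are 14 to 62 counts per library, and the log2 fold change was -0.53 (SE 0.41) in total RNA and 0.14 (SE 0.34) on ribosomes. Oasl2, an OAS-like protein, was between 54.8 and 85.6 CPM in all libraries, and its ribosome-associated level was 72.1, 74.1 and 74.8 CPM in HTT-deleted cells, against 79.9, 76.7 and 75.8 CPM in control cells, a log2 fold change of -0.068 (SE 0.071).

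No transcription factor of the response was called in either fraction. Stat2 was at 108, 173 and 187 CPM in total RNA of HTT-deleted cells, against 189.8, 192 and 173 CPM in control cells, and at 114, 113 and 113 CPM in ribosome-associated RNA of HTT-deleted cells, against 117, 127 and 113 CPM in control cells. In HTT-deleted replicate 1 the total level was the lowest of the 6, and on ribosomes all 6 values lay between 113 and 127 CPM. Irf9 was at 64.5, 80.9 and 83.95 CPM in total RNA of HTT-deleted cells, against 74.4, 79.2 and 76.1 CPM in control cells, and at 79.7, 79.5 and 91.6 CPM in ribosome-associated RNA of HTT-deleted cells, against 76.4, 80.8 and 81.8 CPM in control cells. Irf9, the DNA-binding partner of Stat2, had its lowest value in total HTT-deleted replicate 1, and the groups overlapped in both fractions. Irf7 was at 28.8, 31.03 and 31.9 CPM in total RNA of HTT-deleted cells, against 28.1, 33.5 and 33.1 CPM in control cells, and at 31.5, 31.8 and 30.7 CPM in ribosome-associated RNA of HTT-deleted cells, against 36.6, 32.1 and 31.2 CPM in control cells. Irf7, which drives the later wave of type I interferon genes, had a log2 fold change of -0.019 (SE 0.14) in total RNA and -0.083 (SE 0.096) on ribosomes. Irf1, an activator downstream of interferon gamma, was at 42.6, 38.9 and 39.6 CPM on ribosomes of HTT-deleted cells, against 47.4, 42.9 and 43.1 CPM in control cells, a log2 fold change of -0.13 (SE 0.088) that did not pass, and its total RNA overlapped.

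The sensors of foreign or displaced nucleic acid were likewise not called in either fraction. Ddx58 was at 55.9, 92.5 and 92.8 CPM in total RNA of HTT-deleted cells, against 91.7, 92.3 and 95.1 CPM in control cells, and at 80.4, 79.4 and 78.1 CPM in ribosome-associated RNA of HTT-deleted cells, against 67.9, 81.01 and 78.2 CPM in control cells. Ddx58 encodes RIG-I, a sensor of viral RNA ends, and it was lowest in total HTT-deleted replicate 1 while the 5 other total values lay between 91.7 and 95.1 CPM. Ifih1 (MDA5), Dhx58 (LGP2) and Eif2ak2 (PKR) ran from 17.9 to 31.1, from 15.7 to 20.8 and from 97.3 to 119 CPM over the 12 libraries. Zbp1, a sensor of Z-form nucleic acid, ran from 3.54 to 12.9 CPM and differed by 0.34, 0.23 and 0.36 in pairs 1, 2 and 3 of total RNA and by 0.52, 0.021 and 0.26 on ribosomes, a log2 fold change of 0.36 (SE 0.41) and 0.33 (SE 0.35).

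The IFIT proteins bind foreign RNA ends and hold back its translation. Ifit1 was at 96.2, 70.2 and 93.9 CPM in total RNA of HTT-deleted cells, against 79.1, 80.05 and 82.8 CPM in control cells, and at 113, 91.8 and 122 CPM in ribosome-associated RNA of HTT-deleted cells, against 111, 110.4 and 120 CPM in control cells. Ribosome-associated values of 5 libraries lay between 110.4 and 122 CPM, and HTT-deleted replicate 2 was lower. Ifit2 was at 32.03, 40.6 and 50.5 CPM in total RNA of HTT-deleted cells, against 45.96, 36.2 and 47.95 CPM in control cells, and at 61.00, 46.7 and 58.4 CPM in ribosome-associated RNA of HTT-deleted cells, against 46.9, 42.4 and 60.8 CPM in control cells. Ifit3 was at 69.1, 42.5 and 73.4 CPM in total RNA of HTT-deleted cells, against 78.2, 45.1 and 80.2 CPM in control cells, and at 106, 59.1 and 95.04 CPM in ribosome-associated RNA of HTT-deleted cells, against 112, 59.6 and 102 CPM in control cells. Replicate 2 of Ifit3 was the lowest in all 4 groups. Ifit3b was at 19.2, 24.8 and 26.9 CPM in total RNA of HTT-deleted cells, against 20.6, 22.1 and 27.4 CPM in control cells, and at 28.3, 27.2 and 32.5 CPM in ribosome-associated RNA of HTT-deleted cells, against 28.8, 30.9 and 37.05 CPM in control cells. For Ifit3b replicate 3 was the highest in each group. The log2 fold changes in total RNA were 0.14 (SE 0.16) for Ifit1, -0.11 (SE 0.30) for Ifit3 and 0.044 (SE 0.18) for Ifit3b, and on ribosomes -0.059 (SE 0.12), -0.067 (SE 0.30) and -0.14 (SE 0.13). Of the 50-base runs of Ifit3, 51.2% also occur in Ifit3b, and 45.0% of those of Ifit3b occur in another gene, so reads may be lost or shared between them.

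The membrane proteins that restrict viral entry and exit were highest in total HTT-deleted replicate 1 among the total libraries. Ifitm3 was at 751, 393 and 449 CPM in total RNA of HTT-deleted cells, against 432, 460.4 and 449.5 CPM in control cells, and at 571, 583 and 627 CPM in ribosome-associated RNA of HTT-deleted cells, against 767, 633 and 621 CPM in control cells. Bst2 was at 509, 226 and 304 CPM in total RNA of HTT-deleted cells, against 258, 264 and 262 CPM in control cells, and at 347, 350.3 and 409 CPM in ribosome-associated RNA of HTT-deleted cells, against 442, 374 and 366 CPM in control cells. Ifitm2 was at 77.5, 42.1 and 40.9 CPM in total RNA of HTT-deleted cells, against 39.9, 46.2 and 42.2 CPM in control cells, and at 57.8, 71.3 and 50.4 CPM in ribosome-associated RNA of HTT-deleted cells, against 88.96, 66.99 and 64.95 CPM in control cells. The 5 other total libraries lay between 392.9 and 460.4 CPM for Ifitm3, between 226 and 304 CPM for Bst2 and between 39.9 and 46.2 CPM for Ifitm2, and on ribosomes HTT-deleted replicate 1 was not the highest. The log2 fold changes were 0.29 (SE 0.28), 0.45 (SE 0.31) and 0.36 (SE 0.29) in total RNA and -0.18 (SE 0.12), -0.091 (SE 0.12) and -0.29 (SE 0.17) on ribosomes for Ifitm3, Bst2 and Ifitm2. With the block and replicates 2 and 3 alone, the values in total RNA were -0.11 (SE 0.076), 0.0069 (SE 0.096) and -0.083 (SE 0.075). Bst2 differed by 0.98, -0.22 and 0.21 in pairs 1, 2 and 3 of total RNA. Ifitm2 shares 268 bp of exon with Gm45717 on the same strand, so its counts are uncertain.

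Neither Isg15 nor its protease Usp18 was called between HTT-deleted and control cells. Isg15 was at 155, 78.1 and 86.3 CPM in total RNA of HTT-deleted cells, against 85.5, 97.7 and 89.8 CPM in control cells, and at 114, 127 and 130.5 CPM in ribosome-associated RNA of HTT-deleted cells, against 154, 132 and 123.1 CPM in control cells. Usp18 was at 29.4, 27.5 and 33.05 CPM in total RNA of HTT-deleted cells, against 29.9, 32.7 and 34.05 CPM in control cells, and at 31.9, 34.6 and 36.3 CPM in ribosome-associated RNA of HTT-deleted cells, against 35.1, 36.6 and 33.9 CPM in control cells. Usp18, which removes Isg15 from proteins and restrains the receptor, overlapped between the groups, with a log2 fold change of -0.072 (SE 0.14) in total RNA and -0.034 (SE 0.088) on ribosomes. The log2 fold change of Isg15 was 0.27 (SE 0.29) in total RNA and -0.14 (SE 0.11) on ribosomes, and its total RNA was highest in HTT-deleted replicate 1 with the 5 other values between 78.1 and 97.7 CPM. From replicates 2 and 3 alone, with the block, the log2 fold change of Isg15 in total RNA was -0.18 (SE 0.072), of the opposite sign and not called (adjusted p = 0.423, edgeR quasi-likelihood, Benjamini-Hochberg).

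Mx1 and Mx2 are dynamin-like GTPases that block viral replication, Rsad2 (viperin) makes a chain-terminating nucleotide and Isg20 is an exonuclease, and all were low per kb. Mx1 was at 2.48, 5.13 and 4.57 CPM in total RNA of HTT-deleted cells, against 5.43, 3.56 and 4.43 CPM in control cells, and at 4.91, 3.68 and 2.95 CPM in ribosome-associated RNA of HTT-deleted cells, against 4.77, 2.38 and 2.25 CPM in control cells. Mx2 was at 15.7, 15.5 and 17.00 CPM in total RNA of HTT-deleted cells, against 18.5, 19.5 and 16.5 CPM in control cells, and at 9.04, 11.5 and 11.8 CPM in ribosome-associated RNA of HTT-deleted cells, against 11.2, 13.6 and 10.9 CPM in control cells. Mx2 is annotated as a polymorphic pseudogene in mouse, and its total RNA in HTT-deleted cells lay within 15.5 to 17.0 CPM. Rsad2 was at 7.34, 4.91 and 5.26 CPM in total RNA of HTT-deleted cells, against 6.55, 4.15 and 4.46 CPM in control cells, and at 8.39, 3.84 and 4.86 CPM in ribosome-associated RNA of HTT-deleted cells, against 6.20, 4.22 and 3.56 CPM in control cells. Isg20 was at 4.97, 4.74 and 3.45 CPM in total RNA of HTT-deleted cells, against 3.73, 4.65 and 3.28 CPM in control cells, and at 6.24, 5.99 and 4.01 CPM in ribosome-associated RNA of HTT-deleted cells, against 6.01, 6.10 and 4.12 CPM in control cells. Replicate 1 was highest in every group for Rsad2, and replicate 3 lowest in every group for Isg20, whichever the condition. Their log2 fold changes ran from -0.15 (Mx2) to 0.24 (Rsad2) in total RNA and from -0.13 (Mx2) to 0.31 (Mx1) on ribosomes.

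None of the E3 ligases and ADP-ribosyltransferases was called between HTT-deleted and control cells. Rnf213 was at 136, 234 and 276 CPM in total RNA of HTT-deleted cells, against 280.1, 248 and 240.4 CPM in control cells, and at 143, 106 and 125 CPM in ribosome-associated RNA of HTT-deleted cells, against 103, 122 and 120.5 CPM in control cells. Rnf213, a very large ubiquitin ligase, was lowest in HTT-deleted replicate 1 among the total libraries, within the range of the ribosome-associated ones, and its log2 fold change was -0.23 (SE 0.25) in total RNA and 0.12 (SE 0.13) on ribosomes. Parp14 was at 40.1, 45.3 and 44.95 CPM in total RNA of HTT-deleted cells, against 56.8, 39.01 and 42.05 CPM in control cells, and at 50.1, 33.4 and 38.9 CPM in ribosome-associated RNA of HTT-deleted cells, against 33.5, 29.1 and 33.9 CPM in control cells. Parp14 was higher on ribosomes of HTT-deleted cells in all 3 pairs, by 0.57, 0.19 and 0.20, a log2 fold change of 0.35 (SE 0.16) that did not pass in either fit (adjusted p = 0.118 with the block, edgeR quasi-likelihood, Benjamini-Hochberg). Trim25 was at 81.5, 104 and 109 CPM in total RNA of HTT-deleted cells, against 114, 114 and 101 CPM in control cells, and at 85.1, 78.3 and 79.9 CPM in ribosome-associated RNA of HTT-deleted cells, against 75.9, 91.4 and 79.8 CPM in control cells. Trim25, the ligase that activates RIG-I, was lowest in HTT-deleted replicate 1 among the total libraries. Trim30a was at 39.8, 30.5 and 34.2 CPM in total RNA of HTT-deleted cells, against 37.98, 22.4 and 34.2 CPM in control cells, and at 60.5, 28.6 and 33.1 CPM in ribosome-associated RNA of HTT-deleted cells, against 34.6, 23.1 and 37.7 CPM in control cells. Trim30a was highest in ribosome-associated HTT-deleted replicate 1, and it differed by 0.80, 0.30 and -0.18 in the 3 pairs of ribosome-associated RNA. Parp9 and its partner Dtx3l ran from 33.5 to 60.4 and from 21.5 to 49.2 CPM, both lowest in total HTT-deleted replicate 1.

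The interferon-inducible GTPases, some of which attack the vacuoles of intracellular parasites, were not called between HTT-deleted and control cells in either fraction. On ribosomes their log2 fold changes had a median of -0.14 over 7 genes, with Irgm1 highest at 0.067 (SE 0.28) and Gbp7 at 0.051 (SE 0.16). Iigp1 was at 17.7, 27.1 and 31.1 CPM in total RNA of HTT-deleted cells, against 29.7, 29.2 and 36.3 CPM in control cells, and at 34.3, 30.2 and 32.8 CPM in ribosome-associated RNA of HTT-deleted cells, against 38.4, 39.1 and 42.9 CPM in control cells. On ribosomes all 3 HTT-deleted values of Iigp1 lay below all control values, with differences of -0.16, -0.37 and -0.38 and a log2 fold change of -0.30 (SE 0.094), which did not pass (adjusted p = 0.120 with the block, edgeR quasi-likelihood, Benjamini-Hochberg). Irgm2 was at 18.6, 25.2 and 25.7 CPM in total RNA of HTT-deleted cells, against 25.96, 27.6 and 23.7 CPM in control cells, and at 28.02, 25.00 and 25.1 CPM in ribosome-associated RNA of HTT-deleted cells, against 30.8, 32.6 and 27.3 CPM in control cells. Igtp was at 20.4, 15.5 and 20.9 CPM in total RNA of HTT-deleted cells, against 19.3, 18.8 and 18.7 CPM in control cells, and at 22.3, 22.9 and 23.8 CPM in ribosome-associated RNA of HTT-deleted cells, against 24.8, 26.8 and 24.7 CPM in control cells. Igtp and Irgm2 share 162 bp of exon on the same strand, and their ribosome-associated log2 fold changes were -0.14 (SE 0.089) and -0.21 (SE 0.11). Irgm1 was at 52.1, 39.6 and 68.3 CPM in total RNA of HTT-deleted cells, against 57.5, 35.5 and 59.98 CPM in control cells, and at 74.1, 45.3 and 83.8 CPM in ribosome-associated RNA of HTT-deleted cells, against 65.6, 47.9 and 80.99 CPM in control cells. Irgm1 was lowest in replicate 2 and highest in replicate 3 in every group. Gbp2 was at 13.97, 31.4 and 15.4 CPM in total RNA of HTT-deleted cells, against 21.4, 34.4 and 17.1 CPM in control cells, and at 24.03, 38.97 and 20.1 CPM in ribosome-associated RNA of HTT-deleted cells, against 26.7, 44.1 and 25.2 CPM in control cells. Gbp3 was at 22.1, 32.5 and 26.4 CPM in total RNA of HTT-deleted cells, against 25.96, 36.1 and 26.8 CPM in control cells, and at 30.7, 35.6 and 30.1 CPM in ribosome-associated RNA of HTT-deleted cells, against 30.7, 45.6 and 28.2 CPM in control cells. Gbp2 and Gbp3 had the opposite profile, with replicate 2 highest in every group, and Gbp7, at 13.6 to 23.0 CPM, shared it. The log2 fold change of Gbp2 was -0.24 (SE 0.39) in total RNA and -0.20 (SE 0.32) on ribosomes.

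Psmb9 and Psmb8, genes of antigen presentation, had the largest log2 fold changes of the 48 in total RNA without the block, and these rested on HTT-deleted replicate 1. With the block Oas3 had the largest, at 0.69 (SE 0.33), with Psmb9 at 0.47 (SE 0.41) and Psmb8 at 0.46 (SE 0.35). Psmb9 was at 29.4, 7.69 and 8.87 CPM in total RNA of HTT-deleted cells, against 10.02, 8.46 and 9.63 CPM in control cells, and at 14.7, 11.3 and 10.8 CPM in ribosome-associated RNA of HTT-deleted cells, against 13.02, 8.76 and 10.5 CPM in control cells. Psmb8 was at 103, 31.1 and 40.01 CPM in total RNA of HTT-deleted cells, against 38.99, 33.2 and 39.7 CPM in control cells, and at 56.7, 42.6 and 47.4 CPM in ribosome-associated RNA of HTT-deleted cells, against 60.7, 38.1 and 45.9 CPM in control cells. Psmb8 and Psmb9 are catalytic subunits of the immunoproteasome, which cuts proteins into peptides for MHC class I. In total RNA HTT-deleted replicate 1 was far above the 5 other libraries, which lay between 7.69 and 10.02 CPM for Psmb9 and between 31.1 and 40.01 CPM for Psmb8. The log2 fold changes were 0.76 (SE 0.54) and 0.69 (SE 0.46) with all libraries and -0.17 and -0.060 without that library, so that the sign turned. On ribosomes they were 0.19 (SE 0.20) and 0.027 (SE 0.19). B2m was at 1786, 1028 and 1052 CPM in total RNA of HTT-deleted cells, against 1004, 1048 and 1018 CPM in control cells, and at 1697, 1605 and 1640 CPM in ribosome-associated RNA of HTT-deleted cells, against 1804, 1519 and 1514 CPM in control cells. Tap1, the peptide transporter, ran from 42.5 to 62.1 CPM, and its log2 fold change was -0.042 (SE 0.18) in total RNA and -0.14 (SE 0.11) on ribosomes. Exons of Psmb9 overlap those of Tap1 on the opposite strand by 212 bp, and the sources used here do not give the strand setting of the counting.

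Of the remaining members, Ifi27 and Ifi35 repeated the pattern of the membrane proteins. Ifi27 was at 285, 161 and 190.4 CPM in total RNA of HTT-deleted cells, against 175, 195 and 190 CPM in control cells, and at 185, 184 and 189 CPM in ribosome-associated RNA of HTT-deleted cells, against 218, 193 and 184 CPM in control cells. Ifi35 was at 69.4, 40.03 and 45.2 CPM in total RNA of HTT-deleted cells, against 44.8, 45.3 and 43.8 CPM in control cells, and at 36.3, 45.04 and 42.2 CPM in ribosome-associated RNA of HTT-deleted cells, against 56.04, 47.8 and 40.1 CPM in control cells. Total HTT-deleted replicate 1 was the highest total library for both, and the log2 fold changes were 0.22 (SE 0.24) and 0.25 (SE 0.24) in total RNA and -0.086 (SE 0.091) and -0.21 (SE 0.14) on ribosomes. Xaf1, an antagonist of an apoptosis inhibitor, ran from 29.3 to 43.2 CPM, and Ifi44 from 13.2 to 38.8 CPM with replicate 3 highest in every group.

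The change in the ribosome-associated share was tested as an interaction, the log2 fold change on ribosomes minus that in total RNA. No member was called among 15574 genes tested, of which edgeR called 0.0% with or without the block, with 0 members and 85 genes at an unadjusted p under 0.05. The block gave 0 and 150 at that unadjusted p, and DESeq2 (0.0%) and limma voom called none. The values ran from -0.62 (SE 0.34) for Ifitm2 to 0.69 (SE 0.52) for Oasl1, with a median of 0.028 against 0.014 over all genes. Other low values were those of Psmb8 (-0.61), Psmb9 (-0.52) and Bst2 (-0.50), and other high ones those of Oas3 (0.48), Mx1 (0.44) and Parp14 (0.42). In pairs 1, 2 and 3 the interaction was -1.49, 0.25 and 0.037 for Psmb8 and 1.51, -0.11 and -0.14 for Rnf213, so that pair 1 had the opposite sign for both.

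The 44 other genes of the pathway that were followed were set beside the members, with 32 tested in each fraction. In total RNA 0 were called with or without the block, and on ribosomes 0 were called without it. With the block, Tlr7, an endosomal RNA sensor, rose by 0.78 (SE 0.11) and Ptpn6 (SHP-1), a phosphatase that restrains the kinases, by 0.82 (SE 0.16) on ribosomes (adjusted p = 0.0013 and 0.0287, edgeR quasi-likelihood, Benjamini-Hochberg), where 1.46% of all genes were called higher. Tlr7 was at 56.5, 20.3 and 24.3 CPM on ribosomes of HTT-deleted cells, against 31.6, 9.72 and 17.4 CPM in control cells. Ptpn6 was at 58.1, 24.3 and 29.8 CPM on ribosomes of HTT-deleted cells, against 39.1, 8.76 and 20.4 CPM in control cells. Both followed the order of the summed macrophage markers over the 6 libraries within each condition, with replicate 1 highest and replicate 2 lowest, and the part of those cells was not tested.

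The authors' deposited table lists its own comparison for each fraction. Of 16974 genes listed for total RNA in the authors' deposited table, 844 (4.97%) had a false discovery rate under 0.05, and among the 48 members 3 were higher in HTT-deleted cells and 0 lower. These were Psmb8 (log2 fold change 0.47), Psmb9 (0.47) and Oas1a (0.43) in the authors' deposited table. For the ribosome-associated fraction the authors' deposited table has 683 of 16235 genes (4.21%), with Oas3 (1.00, false discovery rate 1.24e-07) and Oas2 (0.47, 0.00126) higher and Iigp1 (-0.31, 0.0375) lower. In the counts, the Psmb8 and Psmb9 differences stand in pair 1 alone. Oas1a was higher in all 3 pairs of total RNA, as were 9.99% of all genes. On ribosomes Oas3 and Oas2 were higher in all 3 pairs, as were 16.1% of all genes, and Iigp1 was lower in all 3.

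Ribosome-associated RNA was set against total RNA of the same suspensions, first in control cells. The unblocked edgeR test called 12 of the 48 members (25.0%) and 25.0% of all 14990 genes, the same share. With the block it called 24 members (50.0%) and 50.2% of all genes. Without the block, 7 members were higher on ribosomes, where 10.0% of all genes were: Ifitm2 at 0.78 (SE 0.14), B2m at 0.65 (SE 0.11), Bst2 at 0.59 (SE 0.10), Ifitm3 at 0.59 (SE 0.11), Isg15 at 0.58 (SE 0.11), Ifit1 at 0.49 (SE 0.073) and Igtp at 0.42 (SE 0.086). Their adjusted p ran from 0.00552 (Ifit1) to 0.0150 (Igtp). The 5 lower on ribosomes, where 15.0% of all genes were, were Rnf213 at -1.16 (SE 0.10), Stat2 at -0.64 (SE 0.084), Mx2 at -0.62 (SE 0.13), Trim25 at -0.42 (SE 0.097) and Ddx58 at -0.30 (SE 0.082), with adjusted p from 0.00137 (Rnf213) to 0.0354 (Ddx58). As a ratio of scaled levels, ribosome-associated over total, Rnf213 was thus at 0.447 and B2m at 1.57. Each library is scaled to its own size, so this ratio is not the portion of a gene's RNA on ribosomes. With the block the calls grew to 16 higher and 8 lower, adding Gbp2, Gbp3, Irgm1, Irgm2, Iigp1, Ifit3, Ifit3b, Isg20 and Psmb8 on the higher side, where 24.3% of all genes were called, and Parp14, Oas2 and Mx1 on the lower side, where 25.9% were. Without total control replicate 1 and without the block, 5 members and 1507 of all genes were called. In replicates 2 and 3 with the block, 25 members and 49.2% of all genes were. Ribosome-associated and total values did not overlap for 9 members on the higher side, where 20.6% of all genes met that rule, and for 6 on the lower side, where 23.5% did. By family, 3 of 3 membrane proteins, 3 of 4 IFIT genes and 6 of 7 GTPases were called higher with the block, and 3 of 6 E3 ligases and ADP-ribosyltransferases lower.

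Merged exon length, which joins the exons of all transcripts of a gene, went along with this ratio. It can exceed the length of a transcript, as for Irgm1, with 5810 bases merged and 2259 in its longest coding transcript. Across the 48 members the log2 ratio in control cells had a Pearson correlation of -0.739 and a Spearman correlation of -0.705 with log2 exon length, against -0.415 and -0.537 over 13254 protein-coding genes; these are correlations across genes measured in the same 6 libraries. The 10 members under 2 kb all lay above 0, with a median of 0.52, and among the 16 over 5 kb 5 did, with a median of -0.11. Over all protein-coding genes the medians were 0.41 under 2 kb and -0.19 over 5 kb. Both libraries of control replicate 1 stood apart by length, with the correlations of 0.577 (total) and -0.574 (ribosome-associated) given above. In replicates 2 and 3 with the block the correlation across the members was -0.615, and 7 of the 10 members under 2 kb lay above 0. The part of length in the ratio was not tested.

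In HTT-deleted cells the same comparison depended on replicate 1. With 3 replicates and no block, 0 members were called, where 0.896% of all 14627 genes were, and 2 members had an unadjusted p under 0.05 (edgeR). With the block 0 members and 0.663% of all genes were called. Without total HTT-deleted replicate 1, 6 members and 3008 genes were called. In replicates 2 and 3 with the block, 26 members were called and 55.6% of all genes, with 16 members higher (27.7% of all genes) and 10 lower (27.9%), and this fit holds 4 libraries, so its test leans on the spread shared across genes. Rnf213 differed between ribosome-associated and total RNA by 0.077, -1.13 and -1.13 in replicates 1, 2 and 3 of HTT-deleted cells, against -1.44, -1.02 and -0.99 in control cells. For B2m the differences were -0.073, 0.64 and 0.64 in HTT-deleted cells, against 0.85, 0.54 and 0.57 in control cells, and for Isg15 -0.45, 0.70 and 0.59 in HTT-deleted cells, against 0.84, 0.44 and 0.45 in control cells. Replicate 1 of the HTT-deleted cells thus lay apart from replicates 2 and 3 for these genes. Over all 3 replicates the Pearson correlation with length across the members was -0.306 and 7 of the 10 members under 2 kb lay above 0, and in replicates 2 and 3 with the block it was -0.704 and all 10 did. Over all 3 replicates the fractions did not overlap for Ifit3b and Igtp on the higher side, where 8.91% of all genes met that rule, and for Mx2 on the lower side, where 11.6% did. The largest ratios with 3 replicates, none called, were Oasl1 at 0.67 (SE 0.40), Ifit3 at 0.48 (SE 0.29), Gbp2 at 0.44 (SE 0.39) and Ifit2 at 0.42 (SE 0.21), and the lowest Rnf213 at -0.79 (SE 0.28), Mx2 at -0.59 (SE 0.18), Stat2 at -0.47 (SE 0.22) and Ifi35 at -0.33 (SE 0.23).

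**Figure D3:**
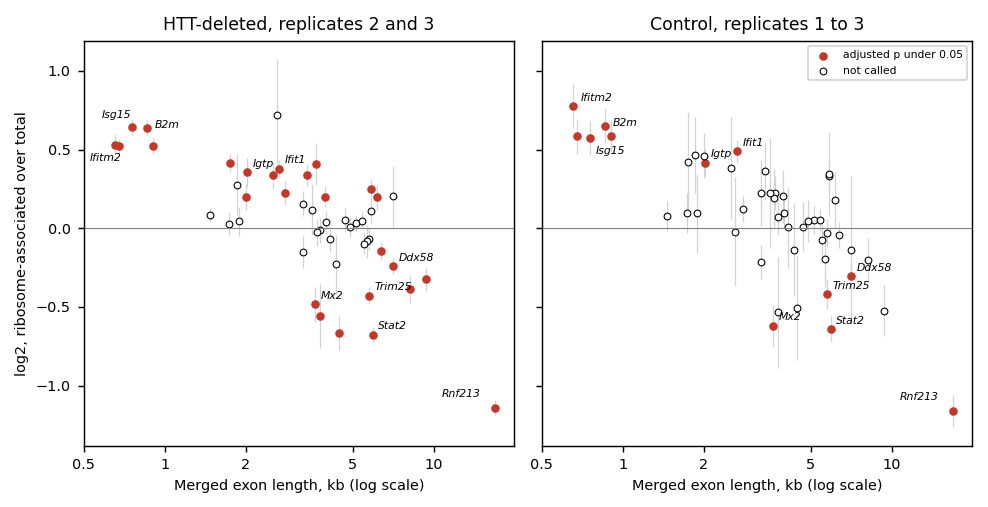
Log2 ratio of ribosome-associated over total RNA against merged exon length (log axis) for the 48 interferon-stimulated genes in HTT-deleted cells, replicates 2 and 3 with the block (left), and in control cells, replicates 1 to 3 without it (right). Bars are SE and red filled points have an adjusted p under 0.05. In both panels the shortest genes, such as B2m and Isg15, lie above 0, and Rnf213, the longest, lies lowest, at -1.14 and -1.16.

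Without the block, pathway genes outside the list were called between the fractions in control cells about as often as other genes. Of 32 tested, 2 were called higher on ribosomes without the block, where 10.0% of all genes were, Ifngr1 at 0.39 (SE 0.099) and Ube2l6, the conjugating enzyme for Isg15, at 0.46 (SE 0.12) (adjusted p = 0.0278 and 0.0347, edgeR quasi-likelihood, Benjamini-Hochberg). The 7 called lower, where 15.0% of all genes were, were Tyk2 at -0.89 (SE 0.16), Ikbke at -0.81 (SE 0.17), Tbk1 at -0.72 (SE 0.084), Adar at -0.62 (SE 0.10), Irf3 at -0.40 (SE 0.079), Stat3 at -0.36 (SE 0.094) and Traf3 at -0.34 (SE 0.088). Tbk1 and Ikbke are the kinases that activate Irf3, and Traf3 is an adaptor upstream of them. With the block, 11 of the 32 were called higher on ribosomes, where 24.3% of all genes were, and 9 lower, where 25.9% were. Among these, 5 of 5 tested receptor chains were higher and 3 of 5 kinases and STATs lower. Without the block the counts for receptor chains and for kinases and STATs were 1 of 5 and 2 of 5.

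Among themselves the members varied by replicate number in both fractions. For 15 of the 48 (31.2%) the libraries of 1 replicate number lay outside the range of the others in both fractions, as they did for 31.9% of all 15574 genes. This rule was chosen after seeing the data. Replicate 2 was highest for Gbp2, Gbp3 and Gbp7 (7.79% of all genes), which lie together on chromosome 3 of GRCm38 between 142530342 and 142638008. It was lowest for Ifit3, Irgm1, Trim30a, Psmb8, Dhx58 and Oasl1, or 12.5% of the members, against 5.36% of all genes. Replicate 3 was highest for Ifit3b, Irgm1 and Ifi44 (8.2% of all genes) and lowest for Zbp1 and Isg20 (5.19%), and replicate 1 was highest for Zbp1, Rsad2 and Psmb9 (5.53%). Ifit3 and Ifit3b, whose promoter windows share the run with both elements shown above, thus took different orders over the same cultures: Ifit3 averaged 61.7 ± 16.8 CPM in total RNA of HTT-deleted cells and 67.9 ± 19.7 CPM in control cells (SD, n = 3 each), and Ifit3b 23.7 ± 3.99 CPM in HTT-deleted cells and 23.4 ± 3.58 CPM in control cells. Whether shared reads set the Ifit3 values apart was not tested.

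**Figure D4:**
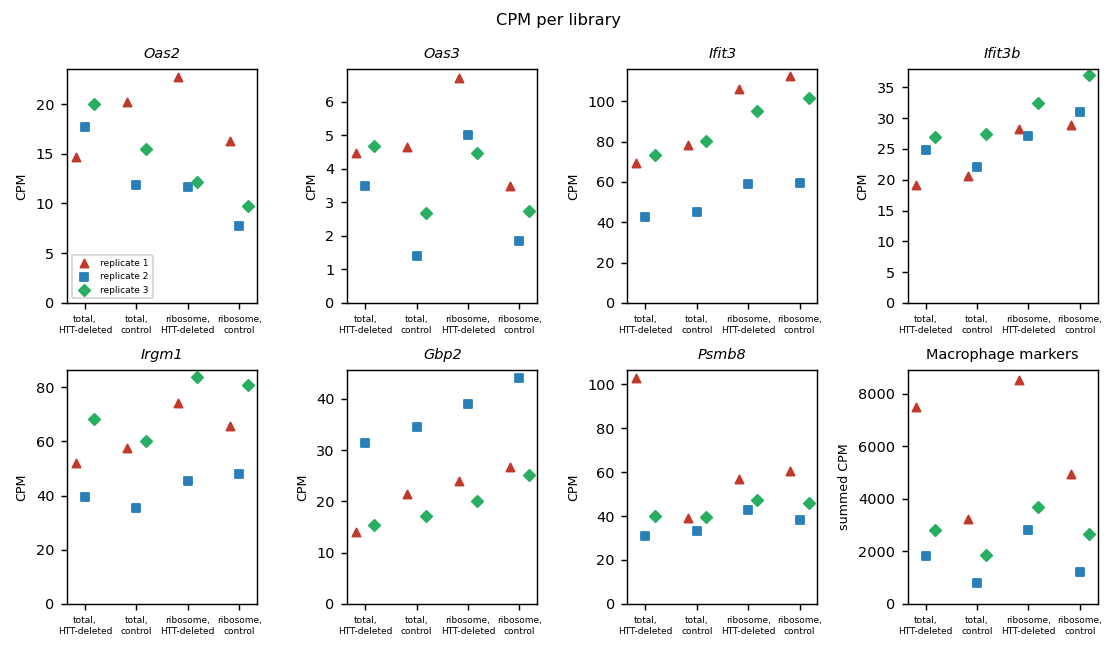
CPM in each of the 12 libraries for 7 interferon-stimulated genes, and the summed CPM of the 18 macrophage markers, with HTT-deleted left of control within each fraction and marks for replicates 1, 2 and 3. Oas3 on ribosomes is higher in HTT-deleted cells for each replicate, Ifit3 is low in replicate 2 and Gbp2 high in replicate 2 in all 4 groups, and Psmb8 stands out in total HTT-deleted replicate 1 alone, at 103 CPM.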

How the data were processed

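RNA of 12 mouse fibroblast libraries was sequenced by the authors with a stranded kit from 250 ng of RNA each. Per the submitters' processing notes, the deposited raw read counts per Ensembl gene came from STAR 2.7.2b and HTSeq 0.11.1 on GRCm38, after FastQC. The authors' deposited comparison table gives log2 fold changes, p-values with their FDR, and likelihood ratio scores from edgeR, per the file headers; its name points to RUVSeq, a correction for unwanted variation. Entries that name no gene were left out of library sizes; reads in no feature made up 2.64% to 7.73% of a library.

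Here counts were fitted with edgeR 4.0.16 in R 4.3.3 (TMM, filterByExpr, robust quasi-likelihood test, Benjamini-Hochberg over all tested genes, called at 0.05), each comparison on its own 2 groups and the interaction on 4. Deviations of same-numbered libraries from their group means had correlations of 0.227 to 0.737 across genes, over 0.1 in every pair, so the numbers were taken to pair the samples and a fit with the number as a block was set beside each result. The labels' protocols take total and ribosome-associated RNA from the same suspension. DESeq2 1.42.0, limma voom 3.58.1, RLE scaling, no filter and leaving out each library were the other alternatives. The fit of replicates 2 and 3 with the block was chosen for genes and named members after seeing the data. Scripts were tested on simulated data.

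Members and gene lists were chosen with earlier results of these data known. Values of every library are given for members called with or without the block, for the 4 largest rises and falls in each comparison, for the 8 most abundant members and for a few in each family; the others are given as ranges. Symbols, coordinates and exon lengths come from GENCODE vM21 (GRCm38), and promoters from RefSeq (GRCm38.p6); for 37 of 45 promoters the bases after the start were found in a GENCODE transcript of the gene. Shared sequence is the share of 50-base runs of the longest coding transcript found in another gene. Intervals and floors of counts cover counting error only. A gene of the pathway is not reported by name here.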

Additional observations from a re-analysis of the deposited data

How the results depend on the processing

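The replicate block took the members called on ribosomes to 2 and those between fractions in control cells to 24, and otherwise changed no count of members called. In replicates 2 and 3 with the block, 26 members were called between fractions in HTT-deleted cells and 25 in control cells. That fit was set against all 3 replicates without the block, so both the libraries and the block differ. The share of all genes whose sign turned was not counted. In total RNA the sign turned for 18 of the 48 members, on ribosomes for 12 and in the interaction for 27. Between fractions it turned for 13 in HTT-deleted and 6 in control cells. Among the members named for the size of their differences these were, in total RNA, Psmb8 (-0.0319), Psmb9 (-0.12) and Rnf213 (0.0639), in the interaction Bst2 (0.0291), Psmb8 (0.134) and Psmb9 (0.31), and between fractions in HTT-deleted cells Ifi35 (0.0278).

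Leaving out 1 library at a time gave log2 fold changes in total RNA from -0.06 (without HTT-deleted replicate 1) to 0.988 for Psmb8, from -0.168 (the same library) to 1.08 for Psmb9, from -0.432 to 0.00123 (the same library) for Rnf213 and from -0.693 to 0.0961 (without control replicate 2) for Gbp2. On ribosomes Oas2 lay between 0.091 and 0.838, the lowest when HTT-deleted replicate 1 and the highest when control replicate 1 was left out, Trim30a ran from -0.0422 (without HTT-deleted replicate 1) to 0.565 and the median of the members from -0.0533 to 0.0382. The interaction ran from -0.0293 (without total control replicate 1) to 0.813 for Oas3, from -0.911 to 0.105 for Psmb8 and from -0.834 to 0.382 for Psmb9, the last 2 turning without total HTT-deleted replicate 1. Between fractions in control cells Gbp3 ran from -0.00938 (without ribosome-associated replicate 2) to 0.4. Members called between fractions ran from 0 to 6 in HTT-deleted cells and from 5 (without total replicate 1) to 12 in control cells. No member was called in a comparison of HTT-deleted with control cells in any such fit.

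Counts over all genes in total RNA were 1 with no filter, 3 with DESeq2 and 94 in replicates 2 and 3 with the block, and on ribosomes 1, 247 and 14 with DESeq2, the block, and replicates 2 and 3 with the block. Between fractions they were 208 with no filter, 766 with DESeq2, 8333 in replicates 2 and 3 with the block and 0 to 3008 without 1 library in HTT-deleted cells, the highest without total replicate 1. In control cells they were 7524 with the block, 7445 in replicates 2 and 3 with it and 1507 to 3251 without 1 library, with 1507, 2119 and 2197 without total replicates 1, 2 and 3. The causes were not tested. The rarest members, such as Oasl1 and Oas3, have the widest counting error, and the fit of replicates 2 and 3 leans on the spread pooled over genes.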
